A study of Mus musculus with 194 samples.

Results

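Granzymes and perforin, the proteins with which a cytotoxic T-cell kills, were followed as 9 genes, Gzma, Gzmb, Gzmc, Gzmd, Gzme, Gzmf, Gzmk, Gzmm and Prf1, of the 23420 gene names measured in single mouse cells. The members were chosen by gene symbol, and all 9 were found in the table. Primary CD8+ T-cells of C57BL/6J mice had been activated for 30 h with 5 μg/mL plate-bound antibody against CD3 and 2 μg/mL antibody against CD28, and then grew in a microfluidic trap array with 100 U/mL interleukin-2. L1210 cells, a lymphocytic leukemia line of the DBA subline 212 that divides without stimulation, grew in the same device without activation or interleukin-2. A single cell was loaded into each lane and its progeny were released for Smart-Seq2 sequencing. Apart from doublets, each library is 1 cell, and most have a known sister and a known number of hours since the last division. Many, but not all, also have known cousins. Of the CD8+ T-cell libraries, 4 doublets and 5 with under 1000 genes above 0 TPM (detected genes) were set aside, which left 97 cells of 34 lineages. Of the 88 L1210 libraries, 81 cells of 26 lineages remained. The lineage was taken as the replicate, since the labels name no mouse, and p-values therefore measure the spread between lineages. The study used fewer mice than there are CD8+ lineages, so some of these share a mouse, and lineages may share a culture. The p-values do not measure the spread between mice.

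Granzymes are serine proteases stored in the secretory granules of killer cells, and perforin, encoded by Prf1, forms the pores through which they enter a target cell. Granzyme B cleaves after aspartate and starts the caspase cascade, granzyme A and granzyme K are tryptases, and granzyme M cleaves after methionine or leucine. A naive CD8+ T-cell holds little of these proteins and acquires them after stimulation through its receptor and by interleukin-2. In the granule the proteases are held by the proteoglycan serglycin (Srgn) and trimmed to the active form by cathepsin C (Ctsc), and serpins in the cytosol protect the killer cell from granzyme that escapes.

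In the GENCODE annotation of GRCm38, Gzmb lies on the minus strand at chr14:56258838-56262260. It is at one end of a run of 7 granzyme genes that spans 145 kb and holds Gzmc, Gzmf, Gzmd and Gzme as well. Gzma and Gzmk are neighbours on chromosome 13, at chr13:113093825-113100981 and chr13:113171608-113225908. Gzmm (chr10:79689020-79695261) and Prf1 (chr10:61297833-61304680) lie far apart on chromosome 10. The transcripts of the chromosome 14 genes resemble each other: 42.7% of the 30-base stretches of Gzme and 39.3% of those of Gzmd also occur in another granzyme transcript, against 22.9% for Gzmf, 15.3% for Gzmc, 1.42% for Gzmb and none for Gzma, Gzmk, Gzmm and Prf1. Values of Gzmc, Gzmd, Gzme and Gzmf are therefore uncertain among these copies, while those of the other members are little affected.

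The 250 bases before the RefSeq start of Gzmb (chr14:56262335-56262584) and of its nearest annotated neighbour in the run, Gzmc (chr14:56234658-56234907), are shown because these adjacent genes were measured at very different levels. Both are from GRCm38.p6 and read 5′ to 3′ on the minus strand. Capitals mark AP-1 (TGANTCA), Runx (TGTGGT) and CRE (TGACGTCA) matches on either strand.
Gzmb: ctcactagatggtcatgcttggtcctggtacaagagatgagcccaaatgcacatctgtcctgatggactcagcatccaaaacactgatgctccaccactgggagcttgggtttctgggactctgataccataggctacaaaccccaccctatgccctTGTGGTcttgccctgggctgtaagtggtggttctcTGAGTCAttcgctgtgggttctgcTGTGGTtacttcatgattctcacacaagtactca
Gzmc: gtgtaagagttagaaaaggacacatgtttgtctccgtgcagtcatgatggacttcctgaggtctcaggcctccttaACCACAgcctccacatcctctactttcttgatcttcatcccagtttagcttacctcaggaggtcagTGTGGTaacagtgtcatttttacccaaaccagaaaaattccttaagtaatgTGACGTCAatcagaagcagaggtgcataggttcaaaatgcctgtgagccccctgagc
The Gzmb window held 1 AP-1 match that began 58 bases before the start, between Runx matches at 93 and 34 bases. The Gzmc window held Runx matches at 174 and 108 bases and a CRE match at 57 bases, and no AP-1 match. Over the windows of all 32851 RefSeq promoters, 6.75% held the AP-1 letters, 14.05% the Runx letters and 1.55% the CRE letters. When aligned, these windows were 62.5% identical. With the members on other chromosomes the Gzmb window was 59.7% (Gzma) to 69.5% (Prf1) identical, so its neighbour was no closer than these. A match describes the letters only and is no evidence of binding.

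Detected genes ranged from 2639 to 10905 (median 6862) in the CD8+ T-cells and from 1610 to 10454 (median 8402) in the L1210 cells. TPM do not keep the number of reads, so the depth of a library is unknown and a gene listed at 0 TPM may have been missed. The summed TPM of Cd3d, Cd3e, Cd3g, Cd8a and Cd8b1 lay between 395 and 5350 in the CD8+ T-cells and had a median of 0 in the L1210 cells. Cd79a, a signalling chain of the B-cell receptor, was above 0 in 80 of the 81 L1210 cells (median 426 TPM) and in 10 of the 97 CD8+ T-cells, and its partner Cd79b in 79 and 47, at up to 283 TPM in the latter. Vpreb1 and Igll1, of the precursor receptor, were each above 0 in 78 L1210 cells and in no CD8+ T-cell. The part of B-lineage transcripts in the CD8+ results was not tested. Natural killer markers were above 0 in 4 (Ncr1 in none), myeloid markers in 11, Cd4 in 2 and mast cell and basophil markers in 1 of the 97 CD8+ T-cells, with sums of at most 36.4, 3.76, 1.81 and 2.34 TPM. The CD8+ lineages came from mice of both sexes, and 16 lineages held more Xist than Y-linked transcript (Eif2s3y, Ddx3y, Kdm5d and Uty summed), 17 held less and 1 held neither. In 4 lineages of 2 cells each (8 cells, CD8_13 to CD8_20) both were above 1 TPM on average, and these are counted among the 16 with more Xist. In every other lineage the smaller of these values was under 1 TPM on average. The parts of mouse, sex and culture in a difference between lineages cannot be told apart here, and this split is given beside each result that moves with it.

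Gzmb dominated the family in CD8+ T-cells. It was above 0 TPM in 87 of 97 cells (89.7%, exact 95% interval 81.9 to 94.9%, counting error over cells only) and in at least 1 cell of all 34 lineages. Its median was 607 TPM, with quartiles of 158 and 2102 TPM and a maximum of 7488 TPM, and it ranked 187 of 23420 genes by median TPM. Levels reached 1000 TPM or more in 35 cells, while 10 cells were listed at 0. The other 8 members were rare: Gzmm was above 0 in 12 cells, Prf1 in 10, Gzma in 9, Gzmc in 7, Gzmf in 4, and Gzmd, Gzme and Gzmk in 1 cell each. Gzmg and Gzmn, the remaining genes of the chromosome 14 run, were at 0 in all 97 cells, which allows detection in up to 3.09% of cells. This limit covers counting error over cells only and is no limit on expression.

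**Figure D1:**
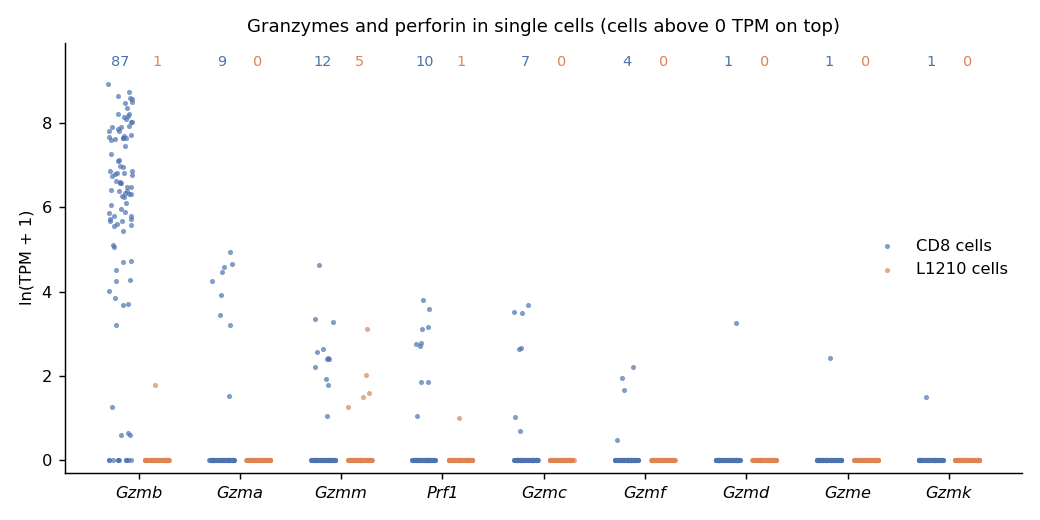
Level of each member, as ln(TPM + 1), in every retained CD8+ T-cell (blue, n = 97) and L1210 cell (orange, n = 81), with the number of cells above 0 TPM on top. Gzmb fills the range up to 7488 TPM in 87 CD8+ T-cells, while no other member exceeds 12 cells.

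Where they were detected, the rarer members were below Gzmb in the same cell, with 2 exceptions, both of Prf1. Gzma, the tryptase, was at 97.3 TPM in CD8_14, 85.8 in CD8_17, 68.97 in CD8_18, 102.89 in CD8_76, 23.5 in CD8_78, 49.2 in CD8_84, 30.4 in CD8_85, 3.64 in CD8_90 and 139 in CD8_102. All 9 of these cells also held Gzmb, at 264 to 7488 TPM with a median of 2705 TPM. Prf1 ran from 1.83 to 43.6 TPM over its 10 cells, and 2 of them held less Gzmb than Prf1. CD8_36 held 14.8 TPM of Prf1 and no Gzmb, and CD8_5 held 1.83 TPM of Prf1 and 0.9 TPM of Gzmb. The gap was also small in CD8_23, with 22.6 TPM of Prf1 and 54.4 TPM of Gzmb, and in CD8_2, with 25.5 TPM of Gzmm and 45.9 TPM of Gzmb. Gzmm ran from 1.83 TPM to 102.39 TPM, and its highest cell, CD8_3, also held the highest Prf1 beside a Gzmb of 350 TPM. Gzmc was at 0.99 to 38.5 TPM and Gzmf at 0.63 to 8.03 TPM. The single values were 25.1 TPM for Gzmd and 10.3 TPM for Gzme, both in CD8_102, and 3.45 TPM for Gzmk in CD8_31. The library CD8_102 held 7 of the 8 rarer members and also had the most detected genes of all, 10905.

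Detection of the rarer members moved with the number of detected genes. The 30 cells with at least 1 of them had a median of 7674 detected genes and 2046 TPM of Gzmb, and the 67 cells with none had 6360 detected genes and 516 TPM. The part of detection in that difference was not tested. The rarer members also moved with the Xist and Y-linked split. In the 50 cells of lineages with more Y-linked transcript Gzmm was above 0 in 9, Prf1 in 8, Gzma in 6, Gzmc in 6 and Gzmf in 4, and in the 46 cells of lineages with more Xist in 3, 2, 3, 1 and 0. All 3 Gzma cells on the side with more Xist (CD8_14, CD8_17 and CD8_18) were of lineages that held both kinds of transcript. So was CD8_20, 1 of the 3 Gzmm cells there. These are counts of cells, some of which share a lineage. Detected genes had medians of 7457 and 6286 in these cells, and the difference was not tested. On lineage means of ln(TPM + 1), Gzmb stood at 5.86 ± 2.28 (SD, n = 34 lineages), followed by Gzma at 0.460 ± 0.925, Gzmc at 0.293 ± 0.791, Gzmm at 0.266 ± 0.534, Prf1 at 0.219 ± 0.447, Gzmf at 0.0996 ± 0.394, Gzmd at 0.0240 ± 0.140, Gzme at 0.0178 ± 0.104 and Gzmk at 0.0110 ± 0.0640. From Gzma down, each neighbour in this order differed from the next by less than the spread over lineages.

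L1210 cells held almost none of these transcripts. Gzmb was above 0 in 1 of 81 cells (5.01 TPM, in L1210_10), Prf1 in 1 cell (1.71 TPM) and Gzmm in 5 cells (2.54 to 21.7 TPM), while Gzma, Gzmc, Gzmd, Gzme, Gzmf and Gzmk were at 0 in all 81, which allows detection in up to 3.70% of cells each. On lineage means, Gzmb was higher in CD8+ T-cells by 5.84 on the ln(TPM + 1) scale (95% interval 5.01 to 6.67), at 5.86 ± 2.28 in 34 lineages against 0.0172 ± 0.0879 in 26 (limma, adjusted p = 1.77e-20). Prf1 differed by 0.200 (interval 0.0170 to 0.382, adjusted p = 0.0512) and Gzmm by 0.169 (interval -0.0507 to 0.389, adjusted p = 0.173), so neither passed 0.05 in limma. All 3 genes passed the filter through the CD8+ T-cells alone, the group in which they were higher. Prf1 passed 0.05 under 5 of 8 alternatives, with adjusted p between 0.0167 and 0.0757. Of all 11373 genes tested, 13.5% were called higher and 50.1% lower in CD8+ T-cells, with a median difference of -0.411 over all genes. With residuals on detected genes that median was -0.13, and the 1540 higher and 5696 lower genes became 2076 and 3402. Under that setting Gzmm differed by 0.258 (limma, adjusted p = 0.0420). Cell type, strain and activation differ together between these groups and cannot be told apart.

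Of the 44 genes listed for granule assembly, transport, inhibition and control, 38 could be compared with L1210 cells, and 20 were higher and 12 lower in CD8+ T-cells. Over all 11373 genes tested, 13.5% were called higher and 50.1% lower. Nkg7, a granule membrane protein of killer cells, was above 0 in all 97 CD8+ T-cells (median 809 TPM) and in 1 L1210 cell, a difference of 6.62. Ctsw, a cathepsin of cytotoxic cells, was above 0 in 96 CD8+ T-cells and 4 L1210 cells, a difference of 5.54. Il2rb, a signalling chain of the interleukin-2 receptor, differed by 5.63. The transcriptional regulators Tcf7, Id2 and Tbx21 differed by 3.37, 3.13 and 2.98. Lower in CD8+ T-cells were Zeb2, a repressor linked to terminal differentiation, by -2.67 and the lysosomal membrane protein Lamp1 by -2.64. The limma adjusted p of these 8 genes was at most 3.26e-13 (Lamp1). Nkg7, Ctsw, Id2 and Tbx21 passed the filter through the CD8+ T-cells alone, and Zeb2 through the L1210 cells alone. In each case this was the group in which the gene was higher, so a difference in that direction follows in part from the filter. The sizes depend on the pseudocount: from 0.1 to 10 TPM, Tcf7 ran from 5.03 to 1.71, Id2 from 4.85 to 1.54, Tbx21 from 4.74 to 1.41, Zeb2 from -4.54 to -1.003 and, of the larger ones, Ctsw from 7.72 to 3.37, Il2rb from 7.70 to 3.51 and Nkg7 from 8.90 to 4.36. The granule assembly list split evenly, with 5 genes higher and 5 lower of 12 tested, and of the serpins 4 were higher and 1 lower of 5. These counts stand beside the same 13.5% higher and 50.1% lower over all genes.

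Gzmb varied far more between CD8+ lineages than within them. The lineage means ran from 0.203 in the lineage of CD8_9 to 8.82 in the lineage of CD8_14, named here by their first cell. Over the 90 cells of 27 lineages with 2 or more cells, 80.9% of the sum of squares of ln(TPM + 1) lay between lineages. The pooled SD within lineages was 1.39. With so few cells per lineage part of that share arises by chance, and the share was not computed for other genes. Of the 16 lineages with 4 cells, the highest held 2447, 2102, 5274 and 2219 TPM in CD8_83 to CD8_86. The middle one held 587, 644, 724 and 385 TPM in CD8_87 to CD8_90, and the lowest 23.6, 2.56, 0 and 0 TPM in CD8_59 to CD8_62. These lineages were chosen by rank, so that their cells are apart is given by the choice, and others spanned wide ranges, such as 54.4 to 2571 TPM in the lineage of CD8_21 and 328 to 5322 TPM in that of CD8_38.

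**Figure D2:**
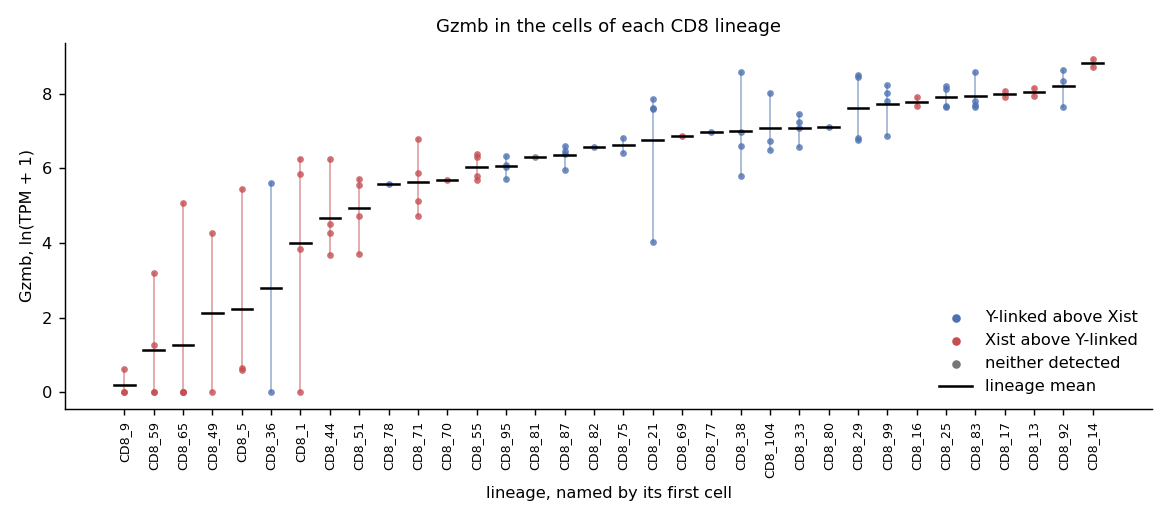
Gzmb as ln(TPM + 1) in every cell (points) of the 34 CD8+ lineages, ordered by lineage mean (black bars, 0.203 to 8.82). Colours give whether Xist or Y-linked transcripts were higher in the lineage, and the 5 lowest lineages all had more Xist.

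Pairs of cells showed the same order. Sisters in which both cells held Gzmb differed by a median of 1.53-fold (35 of 43 pairs), cousins by 1.97-fold (61 of 72 pairs) and cells of different lineages by 4.47-fold (3645 of 4541 pairs). Differences of less than 2-fold were found in 62.9% of those sister pairs, 50.8% of the cousin pairs and 24.7% of the unrelated pairs. These folds leave out pairs with a cell at 0. Gzmb was above 0 in only 1 of the 2 cells in 7 of the 43 pairs of sisters, in 7 of the 72 of cousins and in 856 of the 4541 of unrelated cells. Widely split sisters were found too, up to 277-fold between CD8_6 (0.83 TPM) and CD8_7 (230 TPM), the latter with 2985 detected genes against 5778.

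The question of whether relatives resemble each other in Gzmb was put to a sign-flip test over lineages. The mean absolute difference in ln(TPM + 1) between sisters and cousins was 1.32 ± 1.39 (SD, n = 27 lineages), against 2.88 ± 1.07 from the same cells to cells of other lineages. The difference of -1.56 ± 1.26 was found in 24 of 27 lineages, with permutation p = 1e-05, the smallest that 100000 resamples can give, and adjusted p = 0.00384 over 9997 genes. Of all genes tested, 1.99% were called more alike and 0.01% less alike in related cells. Gzmm (-0.0910, adjusted p = 0.688) and Prf1 (-0.0132, adjusted p = 0.975) did not pass. They were detected in 12 and 10 cells, and both cells of a related pair held Gzmm in 4 and Prf1 in 2 of 115 pairs. The other 6 members were under the filter, which asked for ln(TPM + 1) above 1 in more than 10% of cells, and had no test.

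**Figure D3:**
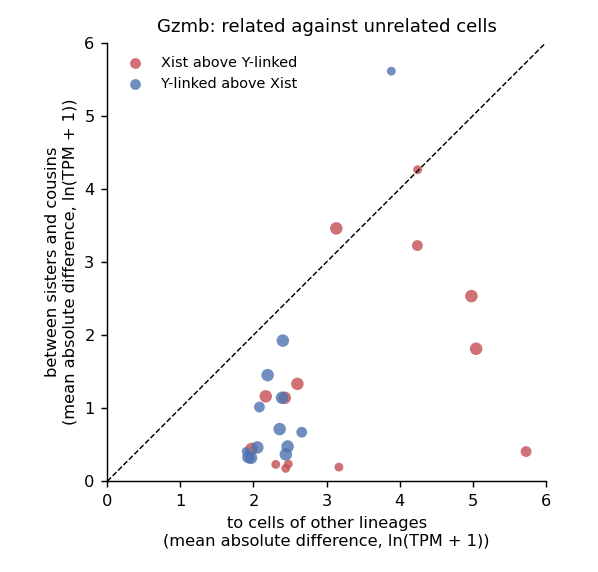
Mean absolute difference in Gzmb between sisters and cousins (vertical) and from the same cells to cells of other lineages (horizontal), both in ln(TPM + 1), for 27 CD8+ lineages with the point area proportional to the number of cells. The 24 lineages below the dashed line of equality were more alike within than between.

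The 3 exceptions were the lineages of CD8_36 (0 and 272 TPM), CD8_49 (0 and 69.95 TPM) and CD8_1 (516, 45.9, 350 and 0 TPM), each of which held a cell with no Gzmb. Cells at 0 were also found in the lineages of CD8_9, CD8_59 and CD8_65, among the most alike (-5.32, -3.23 and -2.45). Their likeness includes shared values of 0, which may be missed detection. Leaving out each of these lineages in turn gave a mean difference of -1.32, -1.40 and -1.43. Gzmb levels also moved with the Xist and Y-linked split. The 17 lineages with more Y-linked transcript had a mean of 6.79 ± 1.24 and 1 cell of 50 at 0. The 16 with more Xist had 4.84 ± 2.76 and 9 cells of 46 at 0. These 16 include the 4 lineages that held both kinds of transcript, with lineage means of 7.79 to 8.82. The other lineages with more Xist had means of 0.203 to 6.86, and no mean was computed without the 4. When unrelated cells were drawn only from lineages of the same side of that split, the difference was -1.24 (permutation p = 9e-05, adjusted p = 0.0333). When they were restricted to cells with the same presence or absence of Xist and of Y-linked transcripts, it was -0.939 (permutation p = 8e-05, adjusted p = 0.0381), a shift of more than 1.5 times from -1.56. In the comparison with unrelated cells of any lineage, the 24 lineages that were more alike were 12 of the 14 with more Xist and 12 of the 13 with more Y-linked transcript.

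Sisters were not shown to be closer than cousins. Over 20 lineages with both, sisters differed by 1.22 ± 1.12 and cousins by 1.22 ± 0.992, a mean difference of 0.00391 ± 0.896 (permutation p = 0.987, adjusted p = 1), and sisters were closer in 7 of 20. Gzmm (-0.0579) and Prf1 (-0.0770) had an adjusted p of 1 as well. Of 9997 genes, 0% were called more alike and 0.03% less alike in sisters, with 89 and 433 genes at an unadjusted p under 0.05.

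Among the listed granule and control genes, 36 passed the filter in CD8+ T-cells and 3 of them (8.33%) were more alike in related cells, against 1.99% of all genes tested, with a median difference of -0.149 against -0.0955 over all genes. These were Nkg7 (-0.294, adjusted p = 0.0129), Id2 (-0.647, adjusted p = 0.0300), a regulator that favours effector cells, and Tcf7 (-0.492, adjusted p = 0.0401), which marks naive and memory T-cells. Leaving out 1 lineage ended the call of Id2 in 3 of 27 cases (adjusted p up to 0.0519) and of Tcf7 in 13 (up to 0.0744). Among 14 other alternatives, 5 ended the call of Nkg7 (adjusted p up to 0.0924), 5 that of Id2 (up to 0.163) and 6 that of Tcf7 (up to 0.398). No serpin or transport gene was called.

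Co-expression with Gzmb was measured over the 34 lineage means. Neither Gzmm (Spearman's rho = 0.211, permutation p = 0.231, adjusted p = 0.564) nor Prf1 (rho = -0.0787, permutation p = 0.660, adjusted p = 0.865) was called. Over the 97 cells the ranks of Gzmb correlated with those of Gzma at 0.252, Gzmc at 0.216, Gzmm at 0.203, Gzmf at 0.201 and Prf1 at -0.0145, as a description over cells that share lineages and differ in detected genes. Taken as deviations from the lineage mean in 90 cells with relatives, these fell to 0.0161, 0.117, 0.103, 0.146 and -0.146. All 9 cells with Gzma, all 7 with Gzmc, all 12 with Gzmm and all 4 with Gzmf held Gzmb, in a population where 87 of 97 cells did.

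Of 9996 other genes, 429 (4.29%) were called higher and 13 (0.13%) lower with Gzmb, and the median rho over all genes was 0.119. The number of detected genes rose with Gzmb over the same lineages (rho = 0.471, permutation p = 0.00507, and Pearson's r = 0.493, permutation p = 0.00298, or r = 0.431 without the 2 lineages farthest from the median, adjusted p of rho = 0.0101 over 2 measures). The other measure, the percentage of TPM from the ribosomal precursor Rn45s, fell with Gzmb (rho = -0.401, permutation p and adjusted p = 0.0194, and Pearson's r = -0.289, permutation p = 0.0992, or r = -0.206 without 2 lineages). Within the split, rho was 0.615 for detected genes and -0.188 for Rn45s in the 16 lineages with more Xist, and 0.221 and -0.478 in the 17 with more Y-linked transcript. The part of Rn45s in the co-expression was not tested. With each gene replaced by its residual on detected genes, 127 genes were called, 90 higher and 37 lower, of which 94 were among the 442. Within the 16 lineages with more Xist 13 genes were called, and within the 17 with more Y-linked transcript 0, with 671 at an unadjusted p under 0.05. With deviations from the mean of each side 188 genes were called.

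Of the 36 listed genes tested, 3 were called higher and 1 lower with Gzmb, 11.1% together. Over all genes 4.29% were called higher and 0.13% lower. The median rho was 0.205 for the listed genes against 0.119 over all genes. Calr, the calcium-binding chaperone calreticulin, also found in lytic granules, had rho = 0.584 (adjusted p = 0.0238). Il2rb had rho = 0.537 (adjusted p = 0.0400) and Id2 rho = 0.514 (adjusted p = 0.0490). Tcf7 had rho = -0.543 (adjusted p = 0.0347). In the lineages with more Xist and in those with more Y-linked transcript, rho was 0.591 and 0.441 for Calr, 0.603 and 0.221 for Il2rb, 0.682 and 0.385 for Id2 and -0.641 and -0.319 for Tcf7. The side with more Xist includes the lineages that held both kinds of transcript, its highest in Gzmb. Leaving out 1 lineage ended the call of Id2 in 27 of 34 cases, of Il2rb in 9 and of Tcf7 in 7, with adjusted p up to 0.105, 0.0804 and 0.0671. Among 17 other alternatives, 9 ended the call of Calr (adjusted p up to 0.949), 10 that of Id2 (up to 0.811) and 10 that of Tcf7 (up to 0.883). For Il2rb 7 ended it (up to 0.926) and 1 reversed it to -0.00929. Over deviations of cells from their lineage mean, the rank correlation with Gzmb was 0.367 for Id2, -0.273 for Tcf7, 0.154 for Il2rb and 0.0166 for Calr. Il2ra (rho = 0.480, adjusted p = 0.0758) and Tbx21 (rho = 0.465, adjusted p = 0.0840) did not pass, and neither did any of the 5 serpins or 10 transport genes.

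The genes of most like pattern over lineages were Gadd45gip1 (rho = 0.775), a protein of the mitochondrial ribosome, Uqcrfs1 (0.757), the iron-sulfur subunit of respiratory complex III, Timm8a1 (0.756), a mitochondrial import chaperone, Sdf2l1 (0.754), a protein of the endoplasmic reticulum, and Nip7 (0.749), a ribosome biogenesis factor. Each had an adjusted p of 0.00488. Most unlike were Sp100 (-0.726, adjusted p = 0.00488), a nuclear body protein, Scml4 (-0.633, adjusted p = 0.0111), Add1 (-0.573, adjusted p = 0.0231), Ms4a6b (-0.572, adjusted p = 0.0243) and Ifi47 (-0.569, adjusted p = 0.0244), an interferon-inducible GTPase. Among the alternatives with a value, the call was lost in 5 of 17 for Sp100, 6 of 16 for Scml4, 8 of 17 for Add1, 8 of 17 for Ms4a6b and 6 of 17 for Ifi47, and in 3 to 6 of 17 for the like genes. Leaving out 1 lineage ended the call of Ms4a6b in 1 case and of Ifi47 in 2. These genes were chosen over the same lineages, so a shared sign on both sides of the split is largely given by that choice. The sign was the same on both sides, from 0.370 (Timm8a1) to 0.906 (Timm8a1) among the like genes and from -0.196 to -0.702 among the unlike. Within lineages these relations were weak, with rank correlations of cell deviations between -0.142 and 0.0813 for the like genes and between -0.184 and -0.00785 for the unlike.

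**Figure D4:**
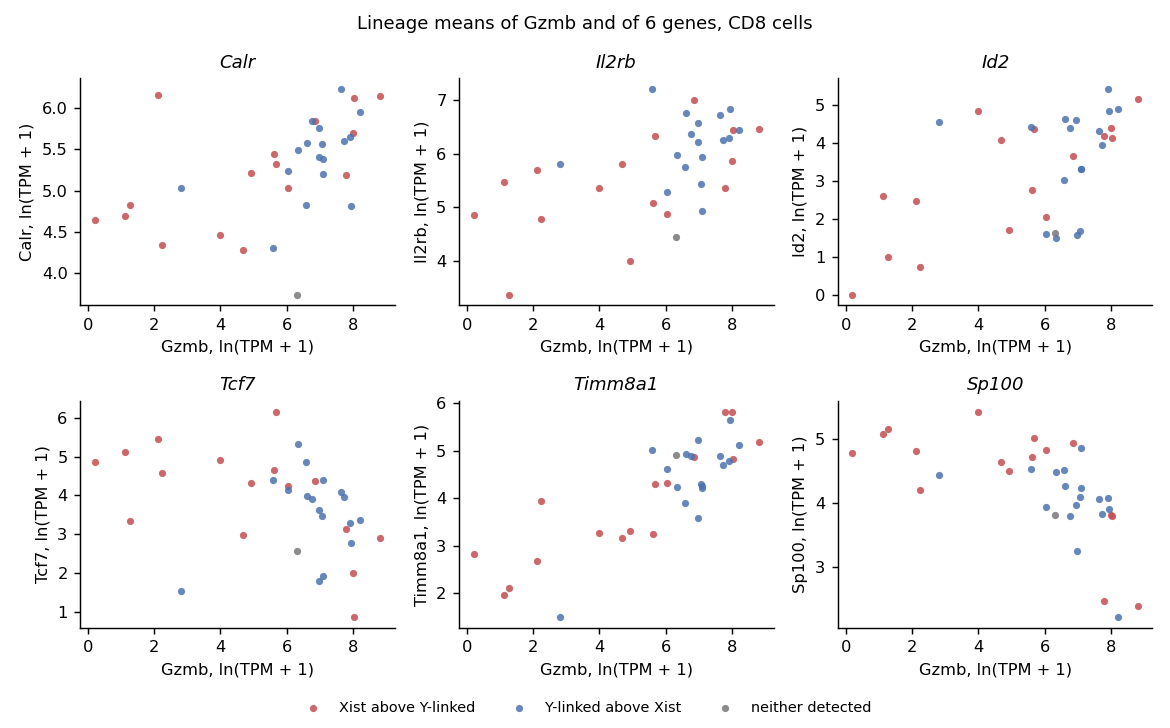
Lineage means of ln(TPM + 1) of Gzmb (horizontal) and of Calr, Il2rb, Id2, Tcf7, Timm8a1 and Sp100 (vertical) in 34 CD8+ lineages, coloured by whether Xist or Y-linked transcripts were higher. Timm8a1 (rho = 0.756) and Sp100 (rho = -0.726) show the closest relations of the 6.

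Gzmb showed no steady rise or fall with time since division that passed a test. Hours were known for 94 CD8+ T-cells of 31 lineages and ran from 0.5 to 9.475 h. Over lineage means, Spearman's rho was -0.154 (permutation p = 0.409, adjusted p = 0.817), and Pearson's r was -0.194 (permutation p = 0.297, adjusted p = 0.683). Without the 2 lineages farthest from the median of hours, rho was -0.0315. By time, the median Gzmb was 372 TPM in 14 cells (6 lineages) under 2 h and 2059 TPM in 27 cells (11 lineages) from 2 to 4 h. It was 1194 TPM in 27 cells (9 lineages) from 4 to 6 h and 247 TPM in 26 cells (9 lineages) from 6 h on. Cells at 0 were found in each range. The range from 2 to 4 h held all 8 cells of the lineages with both Xist and Y-linked transcripts. Both correlations look for a steady rise or fall, so a rise followed by a fall was not tested. In the lineages with more Xist rho was -0.515 (permutation p = 0.0425, adjusted p = 0.463) and in those with more Y-linked transcript 0.150 (permutation p = 0.592, adjusted p = 0.962). The difference between these was not tested. Gzmm (rho = 0.0168, adjusted p = 0.982) and Prf1 (rho = 0.169, adjusted p = 0.794) did not pass. Of 9967 genes, 0.01% were called in each direction.

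**Figure D5:**
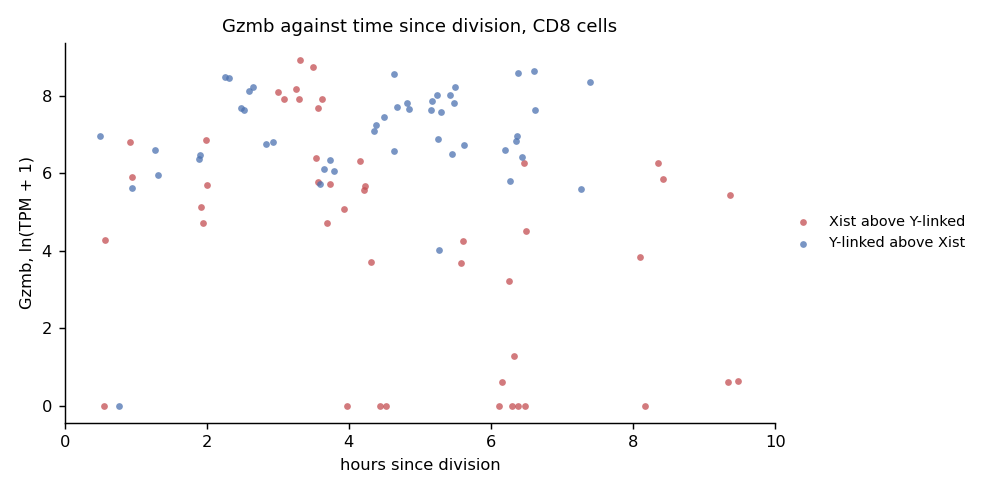
Gzmb as ln(TPM + 1) against hours since division in CD8+ T-cells with a recorded time, coloured by whether Xist or Y-linked transcripts were higher in the lineage. Cells under 2 h reached at most 1056 TPM, and those from 2 to 4, 4 to 6 and 6 h on reached 7488, 5274 and 5687 TPM. The 10 cells at 0 lie between 0.5528 and 8.1667 h.

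None of the 36 listed granule and control genes was called with hours by the permutation test. At an unadjusted p under 0.05 there were 4 of them, a share near that over all genes, of which 2.02% were higher and 8.37% lower with hours at that level. The 4 were Calr (rho = -0.512), Stat5b (-0.480), which carries the interleukin-2 signal, M6pr (-0.434), the mannose 6-phosphate receptor that sorts granzymes to granules, and Vamp7 (0.360), a protein of vesicle fusion, with adjusted p of 0.242 or more. In L1210 cells no member passed the filter, so neither likeness within lineages nor the relation to hours gave a value there. With all genes above 0 TPM taken instead, 3 members could be tested and 0 were called by either permutation test, and 0 had an unadjusted p under 0.05.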

How the data were processed

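Each cell gave 1 Smart-Seq2 library. The authors deposited TPM, transcript abundance per length scaled to 1000000 in each library and not log-transformed, estimated with RSEM 1.2.3 for UCSC-annotated genes of mm10. TopHat2, bcl2fastq and GenomeStudio are also in the submitters' processing notes. TPM keep no read depth, so detected genes stand in for it and precision for low genes is unknown. Doublets and libraries under 1000 detected genes were left out, and where the cousins named for CD8_62 and CD8_65 did not name them back, the labels of their relatives were used. Expression was ln(TPM + 1), so differences of low genes are understated. Tests were kept to genes above 1 on this scale in over 10% of a type's cells. Likeness was tested by sign flips over lineages, correlations by permuting lineages (100000 resamples, 2-sided), and cell types by limma 3.58.1 with a trend in R 4.3.3, with p-values adjusted over every gene tested (Benjamini-Hochberg, threshold 0.05). The sign-flip test of likeness, the permutation test of correlations and limma were tried on simulated data.

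The members and gene lists were chosen with earlier results of these data known. Genes named are the 9 members, at most 8 called genes of the pathway list per comparison with the lowest p, the 5 highest and 5 lowest in rho with Gzmb, and the 4-cell lineages of highest, middle and lowest Gzmb. Others (single cells and lineages, Il2ra, Tbx21, and the 4 listed genes with the lowest p with hours) were chosen after their values were seen. Alternatives were the pseudocount (0.1 and 10 TPM), the filter (50% of cells, or all genes above 0), 4000 detected genes, residuals on detected genes or hours, other tests, other unrelated cells and left-out lineages. The split of lineages by summed Xist and Y-linked TPM and leaving out CD8_102 were chosen after seeing the data. Tests ran in scipy 1.17.1 and numba 0.67.0 under Python 3.11.15, with tables handled by pandas 2.3.3. Coordinates and transcripts are GENCODE, GRCm38, and promoter windows are RefSeq, GRCm38.p6. The summed level of the B-lineage marker list is not reported here.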

Additional observations from a re-analysis of the deposited data

Results flagged for a closer look

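In 3 of the 16 lineages of 4 CD8+ T-cells, 1 cell stood apart from the other 3 in Gzmb by Dixon's criterion on ln(TPM + 1). Chance flags about 1 in 20 groups. CD8_23 held 54.4 TPM where its lineage mates held 1966 to 2571 TPM, with 8144 detected genes, and its sister CD8_24 was among the high cells. CD8_65 held 158 TPM where the other 3 cells of its lineage were at 0, and with 3 values tied at 0 any other value meets the criterion. CD8_85 held 5274 TPM against 2102 to 2447 TPM in the rest.

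The L1210 library L1210_50, which the labels mark as a doublet and which entered no comparison, held 12.5 TPM of Gzmc and 4.49 TPM of Gzmf. Both were at 0 in all 81 retained L1210 cells, and the transcripts share part of their sequence.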

How the results depend on the processing

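TPM keep no depth, so low genes are limited by detection, and only 3 of 9 members could be tested. The likeness of Gzmb in relatives kept its direction and stayed under adjusted p = 0.05 in all 14 alternatives (-1.69 to -0.939, adjusted p up to 0.0381) and without each lineage in turn (-1.66 to -1.32). The number of genes called there was 200, and 430 with all genes above 0 TPM, 66 with unrelated cells within 1 h, 34 with cells alike in Xist and Y-linked detection, 60 within the class of lineage, 880 with the Mann-Whitney U-test, 679 with reassigned pedigrees and 126 without the lineage of CD8_83. The difference of Gzmb between the cell types ran from 3.85 to 7.88 with the pseudocount.

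Sisters against cousins in Gzmb reversed to -0.0698 (pseudocount of 10 TPM), -0.306 (4000 detected genes) and -0.0405 (residual on detected genes), none under 0.05, and no gene was called with all genes above 0 TPM, with 534 at an unadjusted p under 0.05. The 442 genes co-expressed with Gzmb became 288 with all genes above 0 TPM, 284 without the 2 lineages farthest from the median of Gzmb, 127 with residuals on detected genes, 188 with deviations from the class mean, 13 and 0 within the classes with more Xist and more Y-linked transcript, and 0 in lineages with Y-linked transcripts in most cells and 0 in the others (742 and 603 at an unadjusted p under 0.05). Leaving out 1 lineage gave 269 to 538, with 269, 278 and 276 without those of CD8_5, CD8_49 and CD8_92. The relation of Gzmb to hours reversed to 0.150 in the class with more Y-linked transcript, and ran from -0.238 to -0.0906 without 1 lineage. Genes called with hours were 2, and 0 to 12 under the alternatives. The cause of these changes was not tested, beyond fewer lineages within a class.

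Values of single genes reversed too, all of them uncalled except that of Il2rb (rho = 0.537). For likeness, Prf1 became 0.0134 within the class, 0.0124 without the 4 lineages with both Xist and Y-linked transcripts and 0.0524 with the Mann-Whitney U-test and with reassigned pedigrees. For sisters against cousins, Gzmm became 0.00022 with a pseudocount of 10 TPM. For co-expression, Gzmm became -0.0212 with residuals on detected genes and -0.0840 in lineages without Y-linked transcripts in most cells, Il2rb -0.00929 in those with them and Prf1 0.0332 without the 4 mixed lineages. For hours, Gzmm became -0.0121 (pseudocount of 0.1 TPM), -0.0827 (without the 2 farthest lineages) and -0.222 and Prf1 -0.153 (more Y-linked transcript), and Gzmm ran from -0.109 to 0.108 without 1 lineage.

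In L1210 cells the alternatives other than the one with all genes above 0 TPM gave no value, since no member passed the filter. No paired analysis was possible because no replicate number joins lineages in the labels, apart from the likeness and sister tests, which take differences within each lineage.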

Other observations

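Values of Gzmb that belong to no comparison were noted after the data were seen. In the lineage of CD8_29, the sisters CD8_29 and CD8_31 held 4875 and 4718 TPM, and their cousins CD8_30 and CD8_32, sisters of each other, held 862 and 897 TPM. The 4 sister pairs of CD8_13 to CD8_20, in which both Xist and Y-linked transcripts were found, held 2146 to 7488 TPM. Among the libraries left out, the CD8+ doublets CD8_46 and CD8_64 held 20.9 and 5.21 TPM and CD8_43 and CD8_63 none, and CD8_8 and CD8_12, with 529 and 714 detected genes, held 342 and 19.7 TPM.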
